A study of Arabidopsis thaliana with 12 samples.

Results

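The histone variant H2A.Z was at least 1.5-fold lower in *ref4-3* than in wild type at 38 counted regions, which lie in 37 genes, of 24960 regions in 22249 genes. These 37 genes were chosen by their H2A.Z values alone. A region had to have a mean of at least 100 counted fragments over the 4 H2A.Z libraries, both *ref4-3* libraries had to be below both wild-type libraries, and the mean wild-type level had to be at least 1.5 times the mean *ref4-3* level. Levels are given as CPM, which is the fragment count of a region divided by the total of its library, times 1e+06. The H2A.Z values of the 37 genes are therefore given as a description, and only H3K27me3, which the choice did not use, was tested at them. The genes made up 0.166% of all genes with a counted H2A.Z region and 0.171% of the 21700 genes with a region of mean count 100 or more. In 5392 regions of that depth both *ref4-3* libraries were below both wild-type libraries, so the 1.5-fold step was the narrower condition. The same rule turned round, for regions higher in *ref4-3*, held for 76 regions in 74 genes.

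H2A.Z replaces the core histone H2A in a share of nucleosomes and is put in place by the SWR1 remodelling complex. In plants it sits on the first nucleosomes of many genes, and it also covers the bodies of genes that are silent until an environmental or developmental cue calls on them. H3K27me3, trimethylation of lysine 27 of histone H3, is laid down by Polycomb repressive complex 2 and marks genes kept off in a tissue, many of which carry H2A.Z as well.

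Chromatin immunoprecipitation sequencing (ChIP-seq) was done on *Arabidopsis thaliana* of ecotype Col-0. The 2 genotypes were wild type and *ref4-3*, which carries a semidominant point mutation that changes a single amino acid of MED5b, a subunit of the tail of the Mediator complex. All plants were grown on soil at 22 °C with 16 h of light and 8 h of dark, and whole rosettes were taken at 21 days, 6 h after the lights came on, with 4 g of tissue for each biological replicate. Each genotype had 2 libraries for H2A.Z and 2 for H3K27me3, called wild type 1 and 2 and *ref4-3* 1 and 2 below, and input libraries were not analysed here. The point mutation cannot be checked from counts, and in whole rosettes fewer cells with a mark cannot be told apart from less of the mark in each cell.

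The H2A.Z libraries held 7848342 to 10128759 counted fragments and the H3K27me3 libraries 5805781 to 8466471. The *ref4-3* pair differed more than the wild-type pair. The chi-square per region, which is near 1 when 2 libraries differ by counting error only, was 1.08 for wild type and 1.59 for *ref4-3* in H2A.Z, and 1.13 and 2.08 in H3K27me3. The labelled tissue was checked by where H3K27me3 lay. All 8 floral and seed genes looked at, such as *AG* and *LEC1*, carried a region, at 67.3 to 210 wild-type CPM per kb, but so did 4 of 5 photosynthesis genes, at 24.8 to 142. At the photosynthesis genes *ref4-3* 1 was 1.82 to 2.36 times *ref4-3* 2 and at the floral and seed genes 0.935 to 1.02 times. The *ref4-3* libraries thus differed from each other there, and each library was left out in turn for the results below.

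The promoter stretches are printed to show the letters behind the G-box count given below, which was not tested, and at *GBF3* and *AT5G07590* the region of lower H2A.Z begins 2421 and 3296 bp into the gene, away from the printed promoter. All are from the TAIR10.1 assembly, 5′ to 3′ on the strand of the gene. *GBF3*, *RRTF1*, *ERF2* and *AT5G07590* were the only genes of the set with the G-box CACGTG between 250 bases before and 50 bases after their start. The capitals mark the G-box. The windows lie at chr2:19000042-19000101 (+) and chr2:19000143-19000179 (+) for *GBF3*, chr4:16451715-16451774 (+) for *RRTF1*, chr5:2404078-2404137 (-) for *AT5G07590* and chr5:19172963-19173022 (-) for *ERF2*.
GBF3, outer G-box: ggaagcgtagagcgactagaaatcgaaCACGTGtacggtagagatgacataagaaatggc
GBF3, inner G-box: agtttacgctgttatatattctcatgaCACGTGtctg
RRTF1: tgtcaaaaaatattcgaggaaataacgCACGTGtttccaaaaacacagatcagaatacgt
AT5G07590: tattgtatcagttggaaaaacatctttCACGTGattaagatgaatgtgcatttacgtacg
ERF2: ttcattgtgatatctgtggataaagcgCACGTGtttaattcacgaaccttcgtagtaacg

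The stretches of *AT1G35895* and *AT1G07777* are printed because both marks were lower there. *AT1G35895* encodes an uncharacterized protein, and the first 300 bases of its stretch with both marks lie at chr1:13353901-13354200 (-), with coding bases in capitals. *AT1G07777* is a long non-coding RNA gene, and the first 300 of its 340 bases lie at chr1:19354522-19354821 (+), with exon bases in capitals. The shortest sequence is the 19 bases between the ends of *PDX1.1* and *AT2G38240* at chr2:16012516-16012534 (+), 2 neighbouring genes that both belong to the set. These 19 bases lie outside the counted regions of both marks and are printed only to show how close the genes are.
AT1G35895: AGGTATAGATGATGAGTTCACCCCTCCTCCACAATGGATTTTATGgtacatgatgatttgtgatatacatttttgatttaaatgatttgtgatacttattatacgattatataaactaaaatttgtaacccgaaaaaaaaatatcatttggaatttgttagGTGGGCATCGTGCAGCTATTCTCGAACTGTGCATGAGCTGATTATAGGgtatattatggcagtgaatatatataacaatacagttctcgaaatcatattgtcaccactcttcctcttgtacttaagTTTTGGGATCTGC
AT1G07777: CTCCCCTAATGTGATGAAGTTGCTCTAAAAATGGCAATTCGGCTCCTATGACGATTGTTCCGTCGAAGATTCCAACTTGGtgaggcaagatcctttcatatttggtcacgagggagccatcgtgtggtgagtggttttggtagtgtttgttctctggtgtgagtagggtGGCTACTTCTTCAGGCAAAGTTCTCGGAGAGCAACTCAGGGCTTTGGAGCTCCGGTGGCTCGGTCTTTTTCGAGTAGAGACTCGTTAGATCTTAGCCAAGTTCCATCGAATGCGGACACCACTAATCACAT
Between PDX1.1 and AT2G38240: agttttgttggctagtgtg

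The wild-type to *ref4-3* ratio of mean CPM ran from 1.50 to 2.50 over the 38 regions with a median of 1.60, which is a fall of at least 33.3% with a median of 37.6%. Of the 37 genes, 29 are protein-coding, 4 are long non-coding RNA (lncRNA) genes and 4 are pseudogenes. By annotated role, in groups formed after the genes were known, 10 regulate transcription, 6 are enzymes, 5 serve in transport, signalling or protein folding, 2 are pectin methylesterase inhibitor family genes, 3 belong to other named families and 3 encode uncharacterized proteins. *LOX3* was the only gene with 2 regions in the set.

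**Figure D1:**
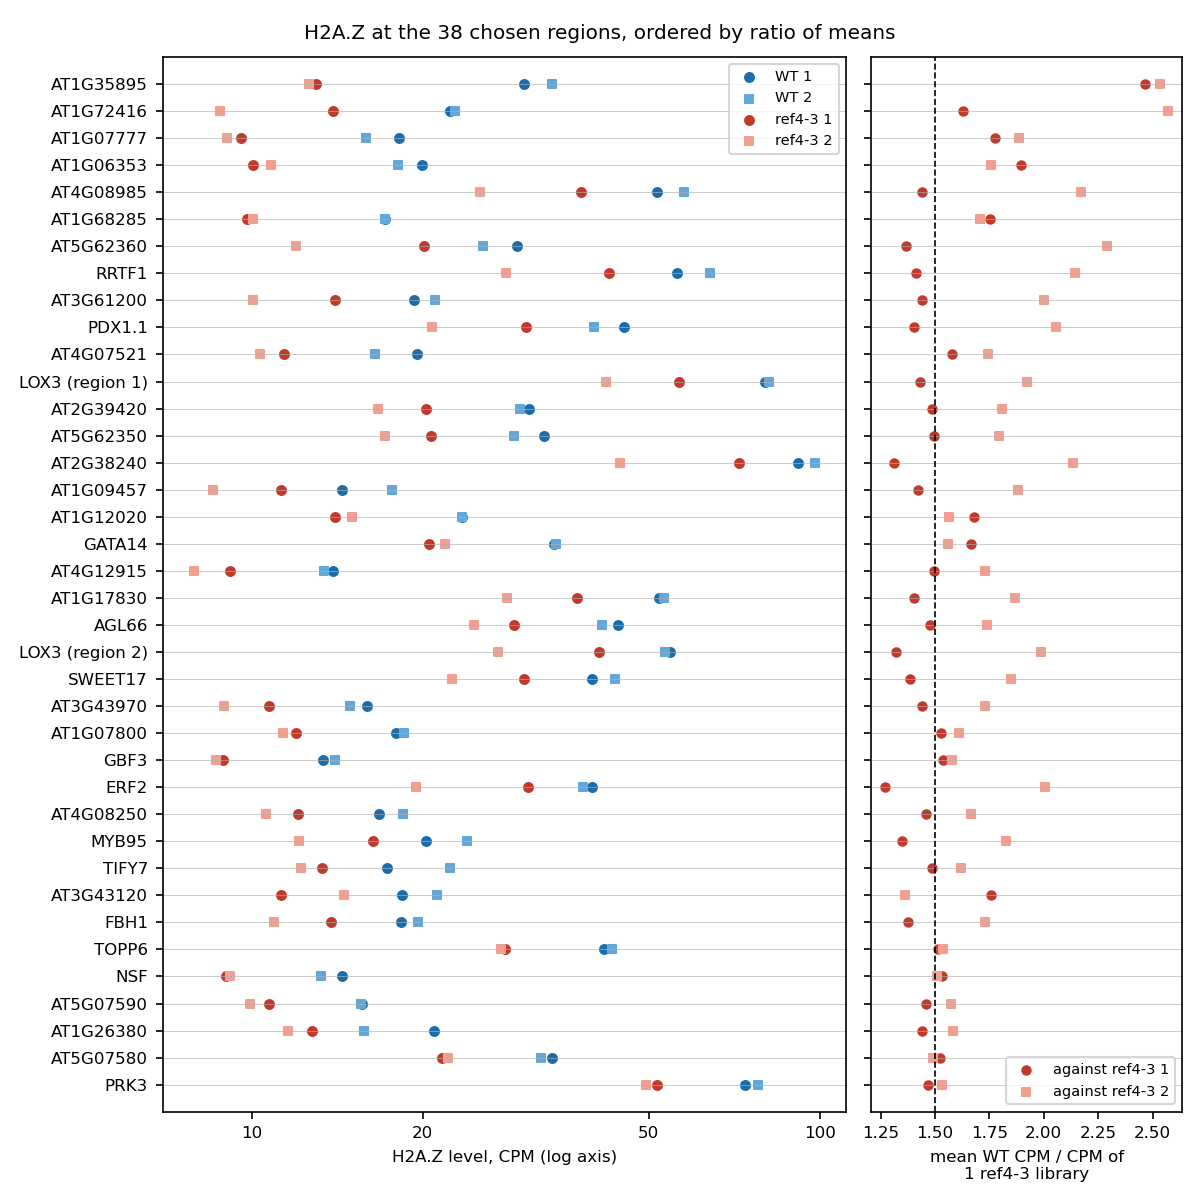
H2A.Z at the 38 regions of the 37 genes, ordered by the wild-type to *ref4-3* ratio. The left panel shows CPM in each of the 4 libraries on a log axis, and the right panel shows the mean wild-type CPM divided by the CPM of each *ref4-3* library alone, with a dashed line at 1.5. *AT1G35895* stands first at a ratio of 2.50, and most points of *ref4-3* 2 lie to the right of those of *ref4-3* 1.

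The transcription regulators made up the largest group, with ratios of 1.51 to 1.70 and a median of 1.56 over 10 genes. *RRTF1* (also *ERF109*, AT4G34410), an ethylene response factor family gene induced by reactive oxygen, had 56.0 and 64.1 CPM in wild type and 42.5 and 28.0 in *ref4-3*, at chr4:16451876-16452800. Its means were 60.04 ± 5.70 and 35.3 ± 10.3 CPM (SD, n = 2), a ratio of 1.70. The counted region begins at the first base of the gene and is mostly coding sequence, so the printed G-box lies just outside it. The wild-type libraries were close, while *ref4-3* 1 was 1.52 times *ref4-3* 2.

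*ERF2*, an activator of ethylene-responsive genes, had 39.8 and 38.3 CPM in wild type and 30.7 and 19.5 in *ref4-3*. The ratio was 1.56, with 1.27 against *ref4-3* 1 alone and 2.00 against *ref4-3* 2 alone. *ERF5*, which lies 6924 bp from *ERF2* and encodes a related factor, had 34.8, 36.7, 35.3 and 38.5 CPM in the same library order, so the libraries of the genotypes overlapped there. Another gene of the family, *AT5G07580*, annotated as ethylene-responsive, had 33.7 and 32.3 CPM in wild type and 21.7 and 22.2 in *ref4-3*, and here each *ref4-3* library alone gave nearly the same ratio, 1.52 and 1.49.

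*TIFY7* (*JAZ9*), a repressor of jasmonate signalling, had 17.3 and 22.3 CPM in wild type and 13.3 and 12.2 in *ref4-3*, with a ratio of 1.55. In this gene the wild-type libraries differed more than the *ref4-3* libraries, with SDs of 3.54 and 0.765 CPM. A second region of *TIFY7*, nearer its 3′ end, had a ratio of 1.33, with 31.2 and 28.7 CPM against 26.97 and 18.1.

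*GBF3*, a bZIP factor that binds the G-box, had 13.3 and 14.0 CPM in wild type and 8.91 and 8.66 in *ref4-3*, with a ratio of 1.56. That region, chr2:19002601-19003000, starts 2421 bp into the gene. The other region of the gene, at its 5′ end and next to the printed promoter, went the opposite way, with 27.8 and 28.4 CPM in wild type and 33.8 and 37.8 in *ref4-3*, with a ratio of 0.784. Of the counted regions of *GBF3* only the later one was lower. An island of the merged wild-type libraries covered it and none of the merged *ref4-3* libraries did. No single library of either genotype had an island there, and its mean count of 102.5 was close to the minimum of 100.

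The other regulators were *MYB95* at 1.55, *AGL66*, a MADS-box factor of pollen, at 1.60, *GATA14* at 1.61, *FBH1*, a basic helix-loop-helix activator of the flowering gene *CONSTANS*, at 1.53, and the GRAS family gene *AT4G08250* at 1.56. At *GATA14* the libraries of each genotype were nearly level, with 34.1 and 34.4 CPM in wild type and 20.5 and 21.9 in *ref4-3*.

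The 6 enzyme genes, with 7 regions, had ratios of 1.51 to 1.68 and a median of 1.63. *LOX3* encodes a 13-lipoxygenase that takes the first step of jasmonate synthesis. Its first region, chr1:5977401-5979200, had 80.2 and 81.5 CPM in wild type and 56.5 and 42.0 in *ref4-3*. The regions together, at 135 and 135 CPM against 97.4 and 69.2, gave a ratio of 1.62, and neither region reached 1.5 with *ref4-3* 1 alone, at 1.43 and 1.32.

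*PDX1.1* (AT2G38230), an enzyme of vitamin B6 synthesis, had 45.3 and 40.1 CPM in wild type and 30.5 and 20.8 in *ref4-3*, with a ratio of 1.67. Of its region, 13.0% has a near-identical copy elsewhere in the genome, the only such case among the 38. Tail to tail with it and 19 bp away lies *AT2G38240*, which encodes a 2-oxoglutarate and Fe(II)-dependent oxygenase. That gene had 91.5 and 98.1 CPM in wild type and 72.2 and 44.5 in *ref4-3*, with a ratio of 1.63. The ratios of these neighbours were close, but the rule chose both for a fall in both *ref4-3* libraries. In both genes *ref4-3* 2 was the lower library.

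*AT3G61200*, a thioesterase family gene, had 19.3 and 21.0 CPM in wild type and 14.0 and 10.07 in *ref4-3*, with a ratio of 1.68. *AT2G39420* of the alpha/beta-hydrolase family stood at 1.63, and *AT1G26380* of the berberine-type FAD-binding family at 1.51 from 20.9 and 15.8 CPM against 12.7 and 11.6. None of the 7 enzyme regions reached 1.5 with *ref4-3* 1 alone, all 7 did with *ref4-3* 2 alone, and in 6 of 7 *ref4-3* 1 was at least 1.2 times *ref4-3* 2.

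The pectin methylesterase inhibitor family genes *AT5G62350* and *AT5G62360*, whose products restrain an enzyme that modifies cell wall pectin, are neighbours on the same strand, 2115 bp apart. *AT5G62360* had 29.3 and 25.6 CPM in wild type and 20.1 and 11.98 in *ref4-3*, with a ratio of 1.71, and *AT5G62350* had 32.7 and 28.9 against 20.6 and 17.2, a ratio of 1.63. In both genes *ref4-3* 2 was the lower of the *ref4-3* libraries.

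Among the genes of transport, signalling and protein folding, *AT1G72416* of the DnaJ co-chaperone family had 22.4 and 22.8 CPM in wild type and 13.9 and 8.79 in *ref4-3*. The ratio was 1.99, at 1.63 with *ref4-3* 1 alone and 2.57 with *ref4-3* 2 alone. *SWEET17*, a vacuolar fructose transporter, stood at 1.58, *TOPP6*, a type one protein phosphatase, at 1.53, and *NSF*, an ATPase of vesicle fusion, at 1.52. *PRK3*, a leucine-rich repeat receptor-like kinase of pollen, was the member closest to the limit, with 74.0 and 77.9 CPM against 51.7 and 49.6, a ratio of 1.50. In *TOPP6*, *NSF* and *PRK3* the *ref4-3* libraries differed by less than 5 parts in 100.

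The remaining protein-coding genes encode uncharacterized proteins or belong to other families. *AT1G35895*, at chr1:13353201-13354200, had the highest ratio, 2.50, from raw counts of 274 and 342 in wild type against 115 and 99 in *ref4-3*. The *ref4-3* libraries were nearly level and gave 2.47 and 2.54 alone. The other uncharacterized genes were *AT1G12020* at 1.62 and *AT3G43970* at 1.57, and the other named families held *AT1G17830*, a DUF789 gene, at 1.60, *AT3G43120*, a SAUR-like auxin-responsive gene, at 1.54, and *AT5G07590*, a WD40 repeat gene, at 1.51.

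The 4 lncRNA genes had ratios of 1.62 to 1.83 with a median of 1.78. *AT1G07777* had 18.2 and 15.9 CPM in wild type and 9.59 and 9.05 in *ref4-3*, with a ratio of 1.83. *AT1G06353*, at chr1:10921835-10922072, had 19.96 and 18.1 CPM against 10.04 and 10.8, a ratio of 1.82. In both genes the genotypes stayed apart by more than the distance between libraries of a genotype, a separation that the rule itself favoured. *AT4G08985* lies antisense within *RRTF1* and had 51.8 and 57.7 CPM against 38.02 and 25.2, and *AT1G09457* lies antisense within *MYB95* and stood at 1.62. Fragments were counted without strand and for each gene they overlapped, so the 661 bp of *AT4G08985* and the 233 bp of *AT1G09457* repeat part of the signal of their partners and are no separate measurement.

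The 4 pseudogenes had ratios of 1.57 to 1.73 with a median of 1.63. *AT1G68285* had 17.2 CPM in both wild-type libraries and 9.82 and 10.07 in *ref4-3*, a ratio of 1.73, and *AT4G07521* had 19.5 and 16.5 against 11.4 and 10.3, a ratio of 1.66. *AT4G12915* stood at 1.60 and *AT1G07800* at 1.57. Unlike the enzymes, 3 of 4 pseudogenes reached 1.5 with *ref4-3* 1 alone, and in none was *ref4-3* 1 as much as 1.2 times *ref4-3* 2.

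Just inside the limit of 1.5 stood *AT1G26380* (1.51), *AT5G07580* (1.51) and *PRK3* (1.50). Just outside it, with the other conditions met, stood *DFL2*, with 94.2 and 89.0 CPM in wild type and 65.9 and 56.7 in *ref4-3*, *AT4G05470*, with 23.4 and 21.3 against 15.1 and 14.9, and *AT5G56985*, with 19.5 and 21.7 against 16.0 and 11.7. All 3 had a ratio of 1.49, so genes on the sides of the limit differed little.

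Across the set *ref4-3* 2 carried more of the fall than *ref4-3* 1. *ref4-3* 1 was above *ref4-3* 2 in 31 of 38 regions with a median ratio of 1.168, against 54.8% of all regions and a median of 1.01. It was at least 1.2 times *ref4-3* 2 in 18 of 38, against 8.53% of all regions. With *ref4-3* 2 alone 36 regions reached 1.5, with *ref4-3* 1 alone 14, and with each alone 12. Applied without *ref4-3* 1 the rule gave 119 genes, of which 35 were in the set, and without *ref4-3* 2 it gave 21, of which 14 were. Whether *ref4-3* 2 differs from *ref4-3* 1 for a technical reason was not tested.

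Wild type had H2A.Z at these genes at a middling level for the genome. Per kb of region, the median was 40.4 CPM in wild type and 25.7 in *ref4-3*, against 37.1 and 37.6 for all regions, and 14 of 38 regions were below the median of all regions in wild type. The regions were shorter than usual, with a median of 600 bp against 800, and had a median mean count of 170 against 267. All 38 lay in an island of the merged wild-type libraries, that is a stretch called as enriched, and 20 in one of the merged *ref4-3* libraries. In single libraries an island covered part of the region in 35 cases for wild type 1 and 34 for wild type 2. It did so in 18 for *ref4-3* 1 and 13 for *ref4-3* 2. At 2 regions, those of *GBF3* and *AT4G12915*, no single library had an island. The regions come from islands of either genotype and were chosen for low *ref4-3* counts in these same libraries. The choice itself therefore favoured fewer islands and a lower level in *ref4-3*, and island shares over all regions were not computed.

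The region began within 200 bp of the gene start in 22 of 38 cases, or 57.9%, against 75.9% of all regions, and within 500 bp in 31, or 81.6%, against 85.2%. Pseudogenes made up 10.8% of the set and 1.19% of all genes with H2A.Z, lncRNA genes 10.8% and 6.80%, and protein-coding genes 78.4% and 90.3%. Of 282 pseudogene regions 1.42% were in the set, and of protein-coding regions 0.132%. In the tenth of the genome's regions with fewest genes around them, at most 106 protein-coding genes within 250 kb, lay 9 of the 38, against 10.3% of all regions. Chromosomes 1 to 5 held 15, 4, 5, 7 and 6 of the genes. Of all genes with H2A.Z they held 26.7%, 15.5%, 19.7%, 15.4% and 22.6%. These shares describe 37 genes and were not tested.

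H3K27me3 was lower in *ref4-3* at 3 of the 9 genes of the set that carried it, *AT1G35895*, *PDX1.1* and *AT1G07777*, and higher at none. Regions of H3K27me3 lay in 9 of 37 genes, or 24.3%, against 34.5% of all genes with H2A.Z. A call needed a false discovery rate (FDR) under 0.05 by edgeR's exact test over all 8663 H3K27me3 regions and a fold change above 1.2, and 7.7% of all 8286 H3K27me3 genes were called lower and 5.52% higher. In the higher direction no gene of the set passed at an unadjusted p under 0.05 either (0 of 9), and edgeR's quasi-likelihood test and DESeq2 also called 0, where they called 5.47% and 2.26% of all genes. In the lower direction the quasi-likelihood test called 3 genes, against 7.81% of all, and DESeq2 called 1, *AT1G35895*, against 2.64% of all.

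The levels below are CPM scaled by the trimmed mean of M-values (TMM), in the order wild type 1 and 2 and *ref4-3* 1 and 2. *AT1G35895* had 32.6, 32.8, 9.30 and 8.74 CPM of H3K27me3. The log2 fold change was -1.86 ± 0.16 (SE, n = 2 per genotype; edgeR exact test FDR = 6.97e-33), a fall of 72.5%. The gap between genotypes far exceeded that between libraries, and the H3K27me3 region has the same ends as the H2A.Z region, whose first bases are printed above. A second H2A.Z region of the gene, 600 bp further on and outside the rule, had a ratio of 1.31.

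*PDX1.1* had 39.7, 44.6, 33.3 and 30.7 CPM of H3K27me3, a log2 fold change of -0.41 ± 0.11 (edgeR exact test FDR = 0.0019), or a fall of 24.7%. The libraries of the genotypes did not overlap, but the call was lost with DESeq2 (FDR = 0.153) and without wild type 2 (log2 fold change -0.32, exact test FDR = 0.213). Its partner *AT2G38240* had 280, 262, 285 and 275 CPM, with a log2 fold change of 0.05 (95% confidence interval -0.04 to 0.13, edgeR exact test FDR = 0.493). H2A.Z was lower in both of these neighbours by the choice of the set, while the H3K27me3 call was made in *PDX1.1*. The difference between the H3K27me3 changes was not tested.

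The lncRNA gene *AT1G07777* had 69.0, 60.3, 50.0 and 53.4 CPM of H3K27me3, a log2 fold change of -0.32 ± 0.09 (edgeR exact test FDR = 0.00285), or a fall of 19.6%. This call too was lost with DESeq2 (FDR = 0.171) and without wild type 1 (log2 fold change -0.22, exact test FDR = 0.287). *AT1G06353* had 17.0, 14.8, 13.4 and 12.4 CPM and a change of -0.30 that did not pass (95% confidence interval -0.62 to 0.01, edgeR exact test FDR = 0.172).

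*AT3G43120* had 244, 248, 204 and 231 CPM of H3K27me3. Its change of -0.17 ± 0.05 had an edgeR exact test FDR of 0.00456 but stayed under the 1.2-fold limit. *GATA14*, which had the highest H3K27me3 level per kb of the 10 regions, 243 wild-type CPM per kb, had a change of -0.11 (95% confidence interval -0.21 to -0.02, edgeR exact test FDR = 0.087). The H3K27me3 regions of *AT1G26380*, of which there are 2, had changes of -0.15 and -0.13, and *AT1G12020* had 22.1, 21.2, 25.8 and 23.6 CPM and a change of 0.19, and none of these passed (edgeR exact test FDR = 0.452, 0.521 and 0.31). At *AT1G12020* H3K27me3 lay in another part of the gene than the H2A.Z region of the set.

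A region with both *ref4-3* libraries below both wild-type libraries was present in 7 of the 9 genes with H3K27me3, where 34.5% of all H3K27me3 genes had one. The median change over the 9 genes was -0.17 on the log2 scale, against 0.00073 over all H3K27me3 genes. For the 28 genes without a counted H3K27me3 region, the nearest island lay 601 to 261801 bp from the H2A.Z region with a median of 5008 bp.

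**Figure D2:**
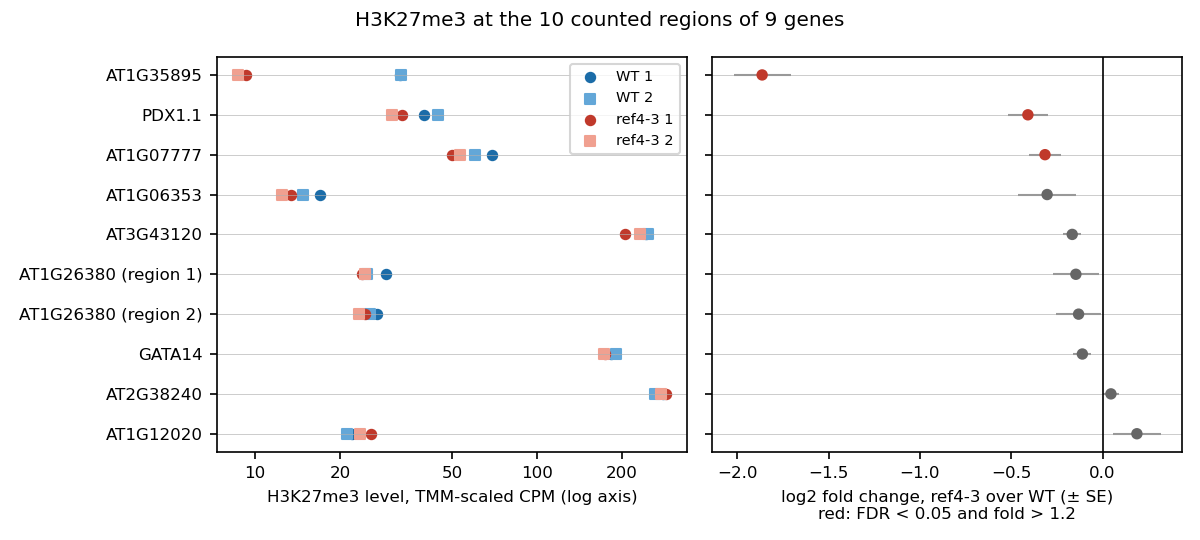
H3K27me3 at the 10 regions of the 9 genes that carry it. The left panel shows TMM-scaled CPM in each library on a log axis, and the right panel the log2 fold change of *ref4-3* over wild type with its standard error, in red where the region passed the test. *AT1G35895* stands apart at -1.86, and *AT1G12020* and *AT2G38240* lie above 0.

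Some genes of the set lie next to each other. Of the 37 genes 10 formed 5 pairs of neighbours, and the 38 regions formed 35 separate stretches. The pairs are *RRTF1* with *AT4G08985*, *MYB95* with *AT1G09457*, *AT5G07580* with *AT5G07590*, whose regions share 37 bp, *PDX1.1* with *AT2G38240*, and *AT5G62350* with *AT5G62360*. In the first 3 pairs the regions overlap, and a fragment there counts for both genes.

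Of the genes directly next to the set and outside it, 43 had a counted H2A.Z region. Their median ratio was 1.01, and 24 were above 1, where 47.4% of all H2A.Z regions were. At 1.2 or more were 3 (2.93% of all H2A.Z genes were). These were *AT1G35890* beside *AT1G35895* (1.21), *AT2G38250* beside *AT2G38240* (1.23) and *DI21* beside *SWEET17* (1.2). The edgeR exact test over all H2A.Z regions called 0 of the 43 lower, against 1.79% of all genes, and 0 higher, against 2.9%, counts too near these shares to be read as a result about the neighbours. At an unadjusted p under 0.05 by the exact test there were 7 lower and 1 higher. The share of all genes at that threshold is not given, so these counts are no result about the neighbours either. The quasi-likelihood test of edgeR and DESeq2 also called 0 in each direction. Over all genes they called 1.85% and 0.0764% lower and 3.04% and 0.0674% higher. At *LOX3* the next gene on the 3′ side, *AT1G17430*, lay 623 bp away with a ratio of 0.976.

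The H3K27me3 of the direct neighbours was called lower at 1 of 22 genes and higher at 0. Over all H3K27me3 genes 7.7% were called lower and 5.52% higher, so these counts are no result about the neighbours. Values were higher in *ref4-3* at 16 of the 22 genes and lower at 6, where 49.9% of all H3K27me3 regions were lower. At an unadjusted p under 0.05 by the exact test there were 5 higher and 1 lower. The share of all genes at that threshold is not given, so these counts too are no result about the neighbours. *AT1G35890*, 4924 bp from *AT1G35895*, was lower in *ref4-3* with a log2 fold change of -0.30 ± 0.12 (edgeR exact test FDR = 0.0463), and DESeq2 called 0. Its H2A.Z was 35.7 and 33.9 CPM in wild type and 28.5 and 29.2 in *ref4-3* (edgeR exact test FDR = 0.0697). The values of both marks were lower at this gene, with H3K27me3 passing the test and H2A.Z not.

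Further out, the median ratio was 0.997 over 43 genes at the second place and 1.03 over 44 at the third. H2A.Z was called lower at 0 and 1 of these genes and higher at 1 and 1, against 1.79% and 2.9% of all. H3K27me3 was called lower at 0 of 25 and 2 of 20 genes, against 7.7% of all. These counts are too small to be read as a result about the neighbours. *AT1G26410*, 3 genes from *AT1G26380*, was lower in H2A.Z, with 24.8 and 25.4 CPM against 19.7 and 18.9 (edgeR exact test FDR = 0.0239), and lower in H3K27me3 (log2 fold change -0.28, exact test FDR = 0.000736). *SP1L1*, on the other side of *AT1G26380*, was lower in H3K27me3 (log2 fold change -0.30, exact test FDR = 6.05e-05). In the opposite direction, *AT1G04923* near *AT1G12020* had 16.1 and 16.8 CPM of H2A.Z against 25.7 and 25.1, and *PGM2* near *TIFY7* had 15.5 and 16.6 against 25.7 and 22.7 (edgeR exact test FDR = 4.98e-05 and 0.000271).

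**Figure D3:**
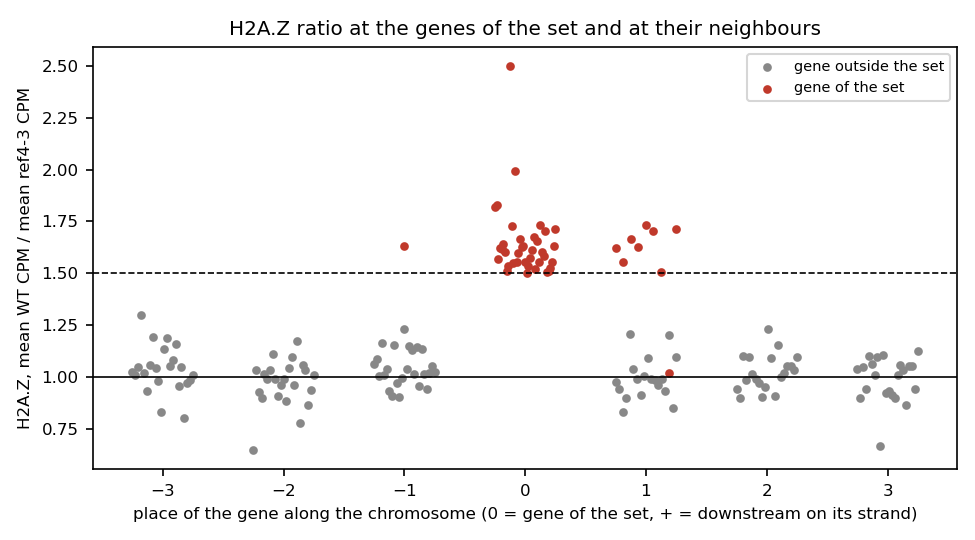
H2A.Z ratio of wild type to *ref4-3* at each gene of the set (place 0) and at the 3 genes on either side of it. Red points are genes of the set and grey points are genes outside it, which centre on 1 at every place, with medians of 1.01, 0.997 and 1.03 by distance.

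Another counted H2A.Z region outside the rule was present in 8 of the 37 genes, 9 regions in all. They are the regions that missed the 1.5-fold limit, so low ratios were fixed by the choice, and the only gene whose second region reached it was *LOX3*. Their ratios ran from 0.784 at *GBF3* to 1.33 at *TIFY7* with a median of 1.05. *AT1G12020*, which lost H2A.Z in its 3′ untranslated part, had more of it in its other region, with 34.6 and 35.2 CPM in wild type and 42.2 and 41.4 in *ref4-3*.

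Genes of jasmonate synthesis and signalling were looked at beside *LOX3* and *TIFY7*. The genes of this pathway make the hormone from a plastid fatty acid, and the JAZ proteins hold its transcription factors in check until the hormone is present. The lists were chosen with earlier results of these data known. Of 12 jasmonate synthesis genes with H2A.Z besides *LOX3*, 5 were lower in *ref4-3* and 0 higher by edgeR's exact test, against 1.79% and 2.9% of all genes. In the higher direction 1 passed at an unadjusted p under 0.05, and the quasi-likelihood test called that 1 and DESeq2 0. DESeq2 also called 0 of the 12 lower, with 6 at an unadjusted p under 0.05, and it called 0.0764% of all genes lower.

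*AOC1*, an allene oxide cyclase gene, came nearest to the set, with 11.1 and 10.8 CPM in wild type and 7.45 and 6.5 in *ref4-3*, and its ratio of 1.57 was above the limit but its mean count was under 100. Its log2 fold change was -0.65 ± 0.17 (edgeR exact test FDR = 0.00869). *OPR3*, the reductase of the pathway, had 20.9 and 19.9 CPM against 16.6 and 13.0, a change of -0.47 ± 0.13 (edgeR exact test FDR = 0.0118). *LOX4*, *OPCL1* and *JAR1* had smaller ratios of 1.24, 1.23 and 1.2 and passed as well. In all 5 genes both *ref4-3* libraries were below both wild-type libraries.

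Of 7 *JAZ* genes with H2A.Z besides *TIFY7*, 2 were lower, *JAZ5* and *JAZ7*. *JAZ5* had 41.8 and 45.7 CPM against 40.2 and 21.3, and its log2 fold change was -0.50 ± 0.09 (edgeR exact test FDR = 1.68e-05). Here *ref4-3* 1 was near the wild-type libraries and *ref4-3* 2 far below them. *JAZ7* had 27.5 and 32.6 CPM against 25.3 and 17.8, a change of -0.48 ± 0.11 (edgeR exact test FDR = 0.00101), and DESeq2 called neither. These counts depended on single libraries. By the exact test, of the 12 jasmonate synthesis genes 0 were lower without wild type 1 or without wild type 2 (8 and 7 at an unadjusted p under 0.05) and 1 without *ref4-3* 2, and of the 7 *JAZ* genes 0 without wild type 2 or without *ref4-3* 2 (2 and 1 at an unadjusted p under 0.05). Over all genes these fits called 0.476% lower without wild type 1, 0.355% without wild type 2 and 1.6% without *ref4-3* 2.

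H3K27me3 was higher at some genes of the pathway. Neither *LOX3* nor *TIFY7* had a counted H3K27me3 region. Of 4 jasmonate synthesis genes with H3K27me3, 3 were higher in *ref4-3* by the exact test (*LOX4*, *AOC1* and *AOC3*), and of 4 *JAZ* genes 3 were higher (*JAZ1*, *JAZ8* and *JAZ10*), against 5.52% of all genes. *AOC3* had 23.5 and 22.7 CPM in wild type and 39.8 and 37.9 in *ref4-3*, and the log2 fold change was 0.75 ± 0.12 (edgeR exact test FDR = 6.46e-09). Of the genes called lower in H2A.Z, *LOX4* and *AOC1* were among those higher in H3K27me3, and *OPR3*, *OPCL1*, *JAR1*, *JAZ5* and *JAZ7* had no counted H3K27me3 region. *JAZ8* and *JAZ10* had H2A.Z ratios of 0.988 and 1.01, and *JAZ1* had no counted H2A.Z region. DESeq2 called 1 and 2 of these genes. Without wild type 1 the first count was 1, against 3.42% of all genes, and without *ref4-3* 2 the second was 1, against 6.58%.

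**Figure D4:**
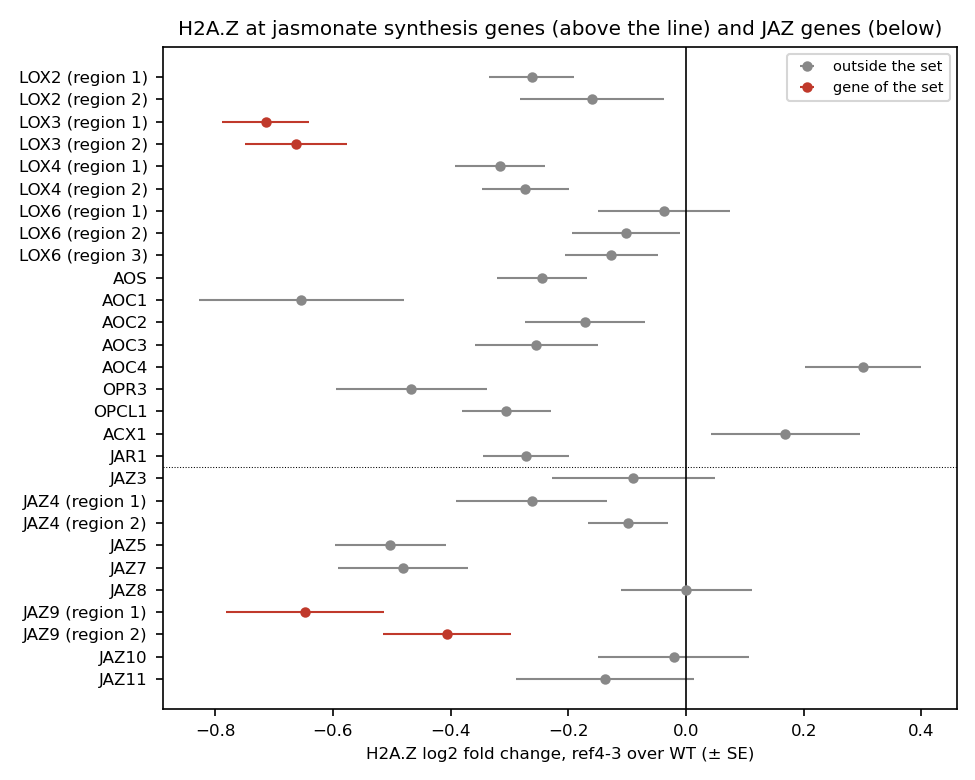
H2A.Z log2 fold change of *ref4-3* over wild type, with its standard error, at the counted regions of jasmonate synthesis and *JAZ* genes. The genes of the set, *LOX3* and *JAZ9* (*TIFY7*), are red, and most other regions lie below 0, among them *AOC1* at -0.65 and *JAZ5* at -0.50.

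Other responsive genes were looked at in the same way, and differences between the lists were not tested. Of 15 rapid stress and touch response genes with H2A.Z besides *RRTF1* and *ERF2*, 0 were lower and 0 higher by edgeR's exact test, near the 1.79% and 2.9% of all genes. At an unadjusted p under 0.05 there were 2 lower and 0 higher, and the quasi-likelihood test and DESeq2 also called 0. *ZAT10*, a zinc finger gene of stress responses, had the highest ratio of these, 1.26 (edgeR exact test FDR = 0.0732). Of 9 heat shock genes 0 were called lower by edgeR's exact test, against 1.79% of all genes. Of the 9, 2 had an unadjusted p under 0.05 in this direction, and the other tests called 0. These 2, *HSFA2*, a heat shock factor, and *HSP70*, a chaperone, had an exact test FDR of 0.0098 and 0.0052 and missed the 1.2-fold limit, each at a ratio of 1.19, close to *JAR1* above. *HSP101*, a protein disaggregase, was higher in 1 of its 2 regions, with 15.4 and 16.5 CPM against 26.0 and 18.2 (edgeR exact test FDR = 0.0106). Neither the 5 genes for H2A.Z and its remodellers nor the 5 Polycomb genes with H2A.Z included a call by edgeR's exact test, its quasi-likelihood test or DESeq2. Over all genes these tests called 1.79%, 1.85% and 0.0764% lower and 2.9%, 3.04% and 0.0674% higher. Lists of 5 genes are too short for these counts to be read as a result. At an unadjusted p under 0.05 by the exact test these were 0 and 0 lower, and 0 and 2 higher.

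No motif searched was common to the promoters of the set. Sequence from 250 bases before to 50 bases after the start was read on both strands for all 37 genes and for 37897 annotated promoters. The G-box CACGTG was in 4 of 37 (10.8% against 6.46% of all promoters and 7.67% of those of genes with H2A.Z). *GBF3* had 2 of them and encodes a factor that binds this sequence. The ABRE core ACGTG, which every G-box contains, was in 10 (27.03% against 24.6%, and 27.4% for genes with H2A.Z). The W-box TTGACC was in 7 (18.9% against 13.5%) and its variant TTGACT in 8 (21.6% against 21.2%). The DRE core CCGAC was in 6 (16.2% against 15.3%), the heat shock element GAANNTTC in 5 (13.5% against 11.4%) and the GAGA repeat GAGAGA in 9 (24.3% against 28.5%). The telobox AAACCCT was in 3 (8.11% against 9.94%), the rapid stress element CGCGTT in 1, *TOPP6* (2.70% against 3.36%), and the GCC-box GCCGCC in 0 (against 2.72%). A match is a run of letters and no evidence of binding.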

How the data were processed

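ChIP-seq libraries of 8 samples (2 per genotype and mark) were used. The authors trimmed reads with fastp 0.23.2, aligned them to TAIR10 with Bowtie2 (2.2.1 in the submitters' processing notes) and kept proper pairs with SAMtools 1.17. They called islands with epic2 (bin and gap 200 bp), per library and on merged libraries, and counted fragments with summarizeOverlaps in gene parts of at least 200 bp that lie in the union of the merged islands of both genotypes. The deposited counts are whole fragments per region, with duplicates removed as the column names say, without input subtraction, strand ignored, and each fragment counted for every gene it overlaps. The deposited island scores and other columns were read only for island positions, not for their values.

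CPM used column totals for H2A.Z and TMM factors for H3K27me3. The members and gene lists were chosen with earlier results of these data known. Calls come from edgeR 4.0.16 (R 4.3.3), exact test, FDR under 0.05 by Benjamini-Hochberg over all regions and fold above 1.2, as in the study's methods. edgeR's quasi-likelihood test and DESeq2 1.42.0 were alternatives, as were other scalings, count and fold limits, single libraries left out and the replicate number as a block. The fits were tested on simulated counts. Every gene of the set is named. Values in every library are given for the 12 regions with the highest ratio, genes that passed the H3K27me3 test, those just inside the limit and those on a list. Values of further genes were chosen after they were seen, as were the role groups. Python 3.11.15, pandas 2.3.3, numpy 2.4.6 and matplotlib 3.10.9 were used, and blastn 2.17.0 for copies (identity 95% over at least 100 bp). The annotation and sequences are RefSeq's TAIR10.1, and all 24960 H2A.Z and 8663 H3K27me3 regions lie inside their gene there. With 2 libraries per group, edgeR's p-values and the SEs rest on a spread between biological replicates estimated in part from all regions together. A region whose own libraries differ more than that can still have a small SE. Values of ± are SD or SE as stated. Counts at an unadjusted p under 0.05 are given without the share of all genes at that threshold.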

Additional observations from a re-analysis of the deposited data

How the results depend on the processing

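The number of genes that the H2A.Z rule gives depends on its limits. It was 16 with a minimum mean count of 200, 65 at a ratio of 1.4 and 1 at a ratio of 2, and with TMM or DESeq2 scaling 38. Leaving out single libraries gave 21 to 119 genes, and the 14 to 35 shared with the set are fewest without *ref4-3* 2. H3K27me3 was called lower at 1 gene of the set with DESeq2 and at 1 with a fold limit of 1.5, at 2 to 4 without single libraries, and at none was it called higher under any of these settings. The median H3K27me3 log2 fold change ranged from -0.25 to -0.13 without single libraries. *AT3G43120* passed without *ref4-3* 2 (log2 fold change -0.27). No H3K27me3 change reversed its sign where it passed the test in the main fit or in the alternative. Signs of the other changes were not compared. Without *ref4-3* 1 the wild-type to *ref4-3* ratio of 6 regions moved by more than 1 SD. This SD is taken over the ratios of single wild-type to single *ref4-3* libraries, which share libraries and include the one left out. The GAGA repeat share was 13.5% with the 250 bases before the start only. The causes were not tested.

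The labels do not say whether libraries of the same replicate number form pairs. Same-numbered libraries had deviations that correlated at -0.0252 for H2A.Z and 0.0719 for H3K27me3 over all regions. These values cannot show whether some regions share a batch. With the replicate number as a block, H3K27me3 was called lower at 3 genes and higher at 0, the median change was -0.17, and, outside the set, 5 jasmonate synthesis and 2 *JAZ* genes were called lower in H2A.Z. The alternatives for these gene lists were chosen after seeing the data.

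With 2 libraries per group and about 170 fragments in a typical region of the set, small differences could not be detected. DESeq2 called far fewer H2A.Z genes than edgeR (0.0764% lower, against 1.79%). Where overlapping genes share fragments, their values are not separate.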
